A study of Mus musculus with 24 samples.

Results

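The family of miR-148 and miR-152, mouse microRNAs (miRNAs: short RNAs that lower the messenger RNAs they pair with), was followed in fat taken from under the skin. The family comprised the 6 listed mature names mmu-miR-148a-3p, mmu-miR-148b-3p and mmu-miR-152-3p, the arms that share the family seed, and their partner arms mmu-miR-148a-5p, mmu-miR-148b-5p and mmu-miR-152-5p. These names were chosen by family, and all 6 of them were among the 1907 names counted and among the 558 miRNAs that passed the filter on low counts.

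Small RNA of mouse subcutaneous fat was sequenced after control or high-fat feeding, to learn which miRNAs differed with diet and with time on the diet. The 6 groups were control diet for 1 day, high-fat diet for 1 day, control diet for 1 week, high-fat diet for 1 week, control diet for 3 weeks and high-fat diet for 3 weeks, each with 4 libraries, 24 in all. No genotype, transgene or drug is named for any group, and the labels used here name no strain, sex or age. Nor do they say whether each library is 1 animal. The p-values therefore weigh a difference only against the spread between libraries within groups, and that spread may be technical.

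A miRNA precursor is a hairpin that DICER cuts into a duplex of a 5p arm and a 3p arm, and one arm, the guide, is usually kept by Argonaute while the other is largely lost. The guide finds its targets mainly through its seed, bases 2 to 8, so guides with the same seed can repress overlapping sets of messenger RNAs. In this family the 3p arms are the guides; they are known for repressing the DNA methyltransferase Dnmt1, and miR-148a is known to promote the formation of adipocytes, in part by repressing Wnt1, a signal that holds precursor cells back.

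The 3 guides are shown because their sequences tell the family apart from its neighbours and from each other, with the seed in capitals and the bases written 5′ to 3′.
miR-148a-3p: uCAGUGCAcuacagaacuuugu
miR-148b-3p: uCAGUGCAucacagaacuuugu
miR-152-3p: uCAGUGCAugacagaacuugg
The sequences are those of RefSeq on the mouse build GRCm38.p6. All 3 guides carry the seed CAGUGCA, and 18 of the 21 positions that could be compared were the same in all of them. Counted from 1 at the 5′ end, miR-148b-3p differs from miR-148a-3p by C9U and U10C, with the base of miR-148a-3p first. From miR-148a-3p to miR-152-3p the substitutions were C9U, U10G and U20G, and from miR-148b-3p to miR-152-3p they were C10G and U20G. Over the compared positions the guides thus differed just behind the seed and near the 3′ end. How the authors treated reads with mismatches or several matches is not stated in the labels or notes, so counts of near-identical guides are uncertain.

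The 5p arms had no seed in common with the guides, and their seeds are again in capitals.
miR-148a-5p: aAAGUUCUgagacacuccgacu
miR-148b-5p: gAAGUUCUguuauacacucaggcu
miR-152-5p: uAGGUUCUgugauacacuccgacu
The 5p arms of miR-148a and miR-148b share the seed AAGUUCU, whereas that of miR-152 is AGGUUCU. The 5p arms were less alike than the guides: 13 of 22 compared positions were the same in the 5p arms of miR-148a and miR-148b, 12 of 22 in those of miR-148a and miR-152, and 19 of 24 in those of miR-148b and miR-152.

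The 3 hairpins lie on 3 chromosomes. Mir148a was annotated at chr6:51269812-51269910 on the minus strand, in no gene, with its nearest protein-coding gene Nfe2l3 at a distance of 162760 bp (GENCODE M21 on GRCm38, the assembly also called mm10). Mir148b lay at chr15:103285125-103285221 on the plus strand in an intron of Copz1. Mir152 lay at chr11:96850393-96850465 on the plus strand in an intron of Copz2. Copz1 and Copz2 encode the zeta subunits of coatomer, the coat of vesicles that move between Golgi and endoplasmic reticulum, and both host genes are read from the same strand as their miRNA. The hairpins are printed with the 5p arm and the 3p arm in capitals, because the ratio of these arms is among the readouts.
Mir148a: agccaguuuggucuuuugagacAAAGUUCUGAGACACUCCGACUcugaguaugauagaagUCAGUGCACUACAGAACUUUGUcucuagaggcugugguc
Mir148b: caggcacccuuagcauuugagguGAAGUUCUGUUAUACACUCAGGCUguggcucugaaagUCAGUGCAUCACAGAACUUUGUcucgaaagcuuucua
Mir152: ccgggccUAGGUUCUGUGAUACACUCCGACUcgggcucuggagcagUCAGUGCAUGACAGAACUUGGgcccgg

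Depth per library ran from 1.99 M to 16.3 M counts (M stands for mega), with a median of 5.30 M, and no pair of libraries in a group matched within sampling noise. The members were counted deeply enough for counting error to be small in all but the rarest arm: the fewest counts in a library were 357790 for miR-148a-3p, 8485 for miR-152-3p, 2972 for miR-148b-3p, 236 for miR-148a-5p, 184 for miR-152-5p and 54 for miR-148b-5p. Levels are given as CPM, counts per 1 M of a library whose size was scaled by the trimmed mean of M-values (TMM); miRNA reads cover the whole molecule, so no division by length was made. Markers of other cells differed widely between libraries: the 5 tested skeletal muscle miRNAs summed to between 24.04 and 80409 CPM, highest in replicate 2 of high-fat week 1, and the 6 leukocyte miRNAs to between 3319 and 43517 CPM. No miRNA is known well enough as specific to adipocytes to check the labelled tissue directly. The liver marker miR-122-5p averaged 384 CPM and the neuronal marker miR-9-5p 0.684 CPM.

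miR-148a-3p was the most abundant miRNA of the fat, at a mean of 170675 ± 44031 CPM (SD, n = 24). It held 16.8% of all miRNA counts on average, between 11.8% and 25.0% in single libraries, and ranked first in 21 of the 24 libraries and second in the other 3. The next most abundant miRNAs were miR-143-3p with a mean of 134286 CPM, miR-126a-3p with 88133 CPM and miR-99a-5p with 81185 CPM. miR-143-3p is known from smooth muscle and also promotes adipocyte formation, and miR-126a-3p marks endothelium.

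The other guides were far rarer. miR-152-3p, at 4871 ± 950 CPM (SD, n = 24), ranked 30 of the 558 miRNAs, and miR-148b-3p, at 1337 ± 207 CPM, ranked 64. Within single libraries miR-148a-3p exceeded miR-152-3p by 27.0 to 73.3 times, with a median of 31.9, and exceeded miR-148b-3p by 87.0 to 195 times, with a median of 123. Ratios between different sequences also hold any difference in how well each was ligated, amplified and counted, which was not tested.

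The partner arms followed at far lower levels. miR-148a-5p averaged 114 ± 29.2 CPM, miR-152-5p 98.7 ± 24.3 CPM and miR-148b-5p 27.2 ± 5.28 CPM (SD, n = 24 each), at ranks 180, 187 and 286. Over the 24 libraries the ranges of neighbours in this order did not overlap, with 1 exception: miR-148a-5p, between 59.5 and 178 CPM, and miR-152-5p, between 63.5 and 157 CPM, did not differ beyond their spread. The 6 arms together made up 17.5% of all counts (12.3% to 25.6%), of which miR-148a-3p alone made up 96.2% (95.4% to 97.9%).

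Spread between libraries differed among the members. miR-148a-3p varied 2.49-fold between its lowest library, replicate 2 of control week 1, and its highest, replicate 4 of control day 1. miR-148b-3p varied 1.82-fold and miR-152-3p 2.06-fold. Within groups the SD of log2 CPM was 0.37 for miR-148a-3p, 0.27 for miR-152-3p and 0.21 for miR-148b-3p, which put miR-148b-3p at place 30 of 558 from the least variable miRNA and miR-148a-3p at place 221.

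**Figure D1:**
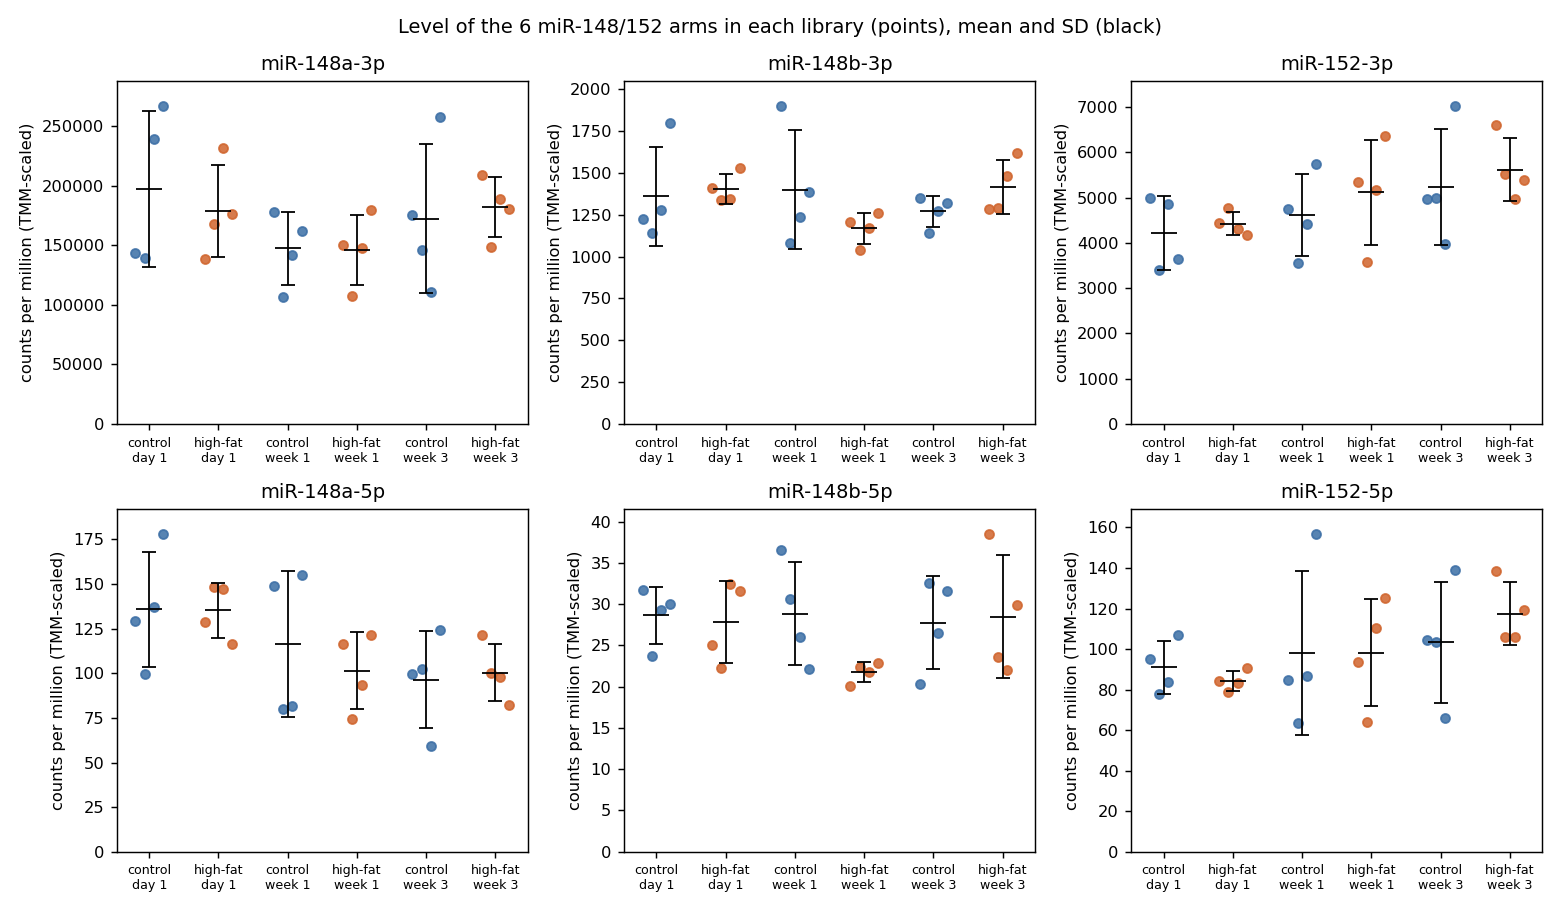
Levels of the 6 arms, in TMM-scaled CPM on linear axes from 0, by diet and time; each point is a library (control in blue, high-fat in orange), and black marks give the mean and SD of 4 libraries. The diets overlapped for every arm at each time, and miR-148a-3p reached its lowest and highest levels, 106908 and 266653 CPM, both in control libraries.

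The shared seed accounted for a large share of the counts. A mature sequence was found for 1623 of the 1907 names, which held 80.4% of the counts, and these names carried 1352 different seeds. CAGUGCA was the seed with the largest share, 17.4 ± 3.20% (SD, n = 24) of all counts, and no name other than the 3 guides carried it. The let-7 seed followed with 10.2 ± 1.21% over 11 names, and the miR-99a-5p seed with 9.07 ± 1.42% over 3 names. miR-143-3p, with 13.3% of the counts, is not part of this ranking. The 5p seed AAGUUCU held 0.0141% of the counts.

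Part of the seed occurs in miRNAs of other families. The 6 bases AGUGCA, bases 3 to 8 of the guides, were searched within bases 1 to 9 of each mature sequence, on the RNA strand only. They were found in 12 of the 1623 names (0.739%), of which 7 passed the filter: the 3 guides, miR-130a-3p, miR-130b-3p, miR-301a-3p and miR-350-5p. The most abundant of the non-members, miR-130a-3p, known for repressing the adipocyte regulator Pparg, is printed with these 6 bases in capitals and held 0.0257% of the counts.
miR-130a-3p: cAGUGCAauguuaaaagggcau
In miR-130a-3p, miR-130b-3p and miR-301a-3p the 6 bases begin at base 2, whereas in the guides and in miR-350-5p they begin at base 3. A match of these letters is a description and says nothing of shared targets.

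**Figure D2:**
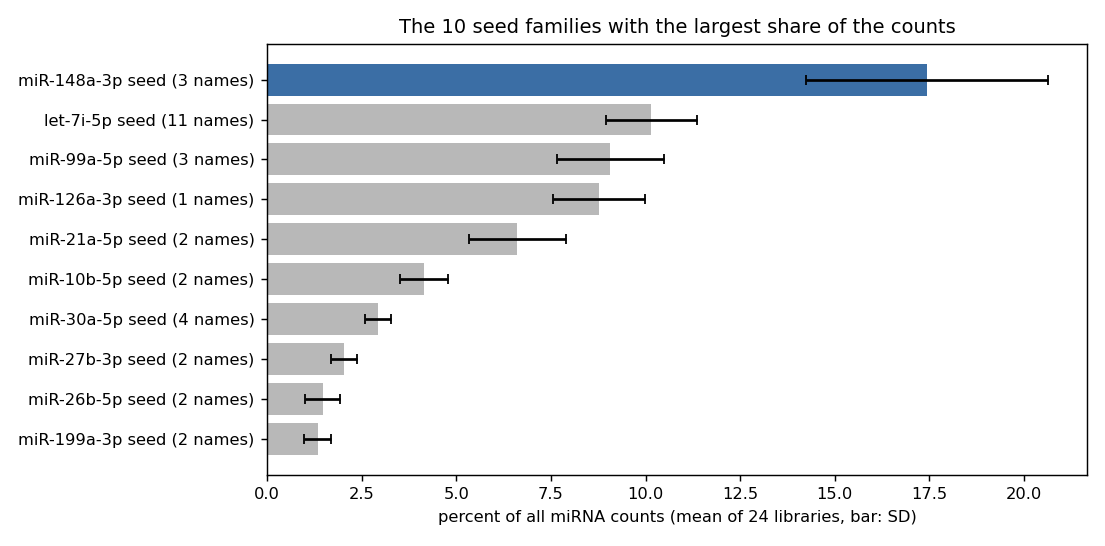
The 10 seeds with the largest share of all miRNA counts among names with a matched sequence, each labelled by its most abundant member; bars are means over 24 libraries and error bars are SDs. The seed of the 3 guides (blue) held 17.4% of the counts, ahead of the let-7 seed with 10.2%.

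No difference between the diets passed the test for any member. The question was whether high-fat feeding changed the level of the family, and each comparison was a contrast in one model of all 558 miRNAs and 24 libraries (edgeR's quasi-likelihood test, Benjamini-Hochberg adjusted p below 0.05). At day 1, week 1 and week 3, and for the mean of the 3 times, 0 of the 6 members were called. The background was the same: 0% of the 558 miRNAs were called at day 1, 0% at week 1, 0% at week 3 and 0% for the mean, with 17, 79, 10 and 18 miRNAs at an unadjusted p below 0.05. DESeq2 called 0 miRNAs in each of these 4 comparisons, and limma-voom called 17 at week 1, no member among them, and 0 in the others. A joint test of whether the diet difference changed with time called 0 members and 0% of all miRNAs (41 at an unadjusted p below 0.05, and 0 called by DESeq2 or limma-voom), and the lowest unadjusted p of a member was 0.206, for miR-148b-3p.

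For miR-148a-3p the day 1 libraries on control diet had 143832, 139217, 239006 and 266653 CPM. Those on high-fat diet for 1 day had 138757, 168273, 231813 and 176441 CPM. Replicates 3 and 4 of the control diet were the highest of these 8 libraries, replicate 3 of the high-fat diet came next, and the diets overlapped. The log2 fold change, high-fat against control, was −0.14 ± 0.24 (SE, 4 libraries per diet), with edgeR's adjusted p = 0.982.

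After 1 week miR-148a-3p stood at 178404, 106908, 142015 and 162461 CPM on control diet. On high-fat diet for 1 week it stood at 150683, 107548, 147473 and 179487 CPM. Both diets spanned nearly the same range, and their means, 147447 and 146298 CPM, were close. The log2 fold change was −0.01 ± 0.24 (edgeR's adjusted p = 0.989).

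At week 3 miR-148a-3p was measured at 175246, 145734, 110633 and 257477 CPM on control diet. The high-fat libraries of week 3 held 209304, 148931, 188991 and 180923 CPM. The control libraries contained both the lowest and the highest of these 8 values, with the high-fat libraries between them. The log2 fold change was 0.08 ± 0.24 (edgeR's adjusted p = 0.999).

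Averaged over the 3 times, miR-148a-3p differed by a log2 fold change of −0.02 ± 0.14, with a 95% interval from −0.32 to 0.27, or 0.803-fold to 1.20-fold. At a single time the intervals were wider, for example 0.638-fold to 1.29-fold at day 1. Of all 558 miRNAs, 89.4% had a mean diet interval that lay within 2-fold in both directions.

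miR-152-3p, the second guide, also showed no called difference between the diets. On day 1 the control libraries had 4993, 3402, 4850.4 and 3639 CPM, and the high-fat libraries had 4436, 4767, 4314 and 4184 CPM. The high-fat values lay inside the range of the control values, and the log2 fold change was 0.07 ± 0.19. At week 1 the control libraries had 4757, 3546, 4422 and 5732 CPM, and the high-fat libraries had 5348, 3572, 5163 and 6369.7 CPM. The highest and the lowest of the high-fat values were replicate 4 and replicate 2, and the log2 fold change was 0.15 ± 0.19. At week 3 the control libraries had 4971, 4984, 3965 and 7013 CPM, and the high-fat libraries had 6599, 5519, 4963 and 5390.4 CPM. Replicate 4 of the control diet was the highest of all 24 libraries, and the log2 fold change was 0.10 ± 0.19. The mean over the 3 times was 0.11 ± 0.11, with a 95% interval from −0.12 to 0.33 (edgeR's adjusted p = 0.993).

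miR-148b-3p, the rarest guide, had 1223, 1141, 1276 and 1797 CPM on control diet at day 1. On high-fat diet at day 1 it had 1413, 1341, 1341 and 1529 CPM. All 4 high-fat values lay within the control range, with a log2 fold change of 0.05 ± 0.17. At week 1 the control libraries had 1897, 1080.1, 1234 and 1386 CPM, and the high-fat libraries had 1207, 1039.8, 1169.8 and 1259.7 CPM. The 2 highest values were control libraries, the lowest was replicate 2 of the high-fat diet, and the log2 fold change was −0.26 ± 0.17 (edgeR's adjusted p = 0.443). Without replicate 1 of control week 1 it was −0.08. At week 3 the control libraries had 1352, 1141, 1272 and 1319 CPM, and the high-fat libraries had 1283, 1289, 1484 and 1616 CPM. The 2 highest values were high-fat libraries, and the log2 fold change was 0.16 ± 0.17 (edgeR's adjusted p = 0.999).

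Among the partner arms, the largest diet difference in size was that of miR-148b-5p at week 1. The control libraries of week 1 had 36.6, 30.7, 26.0 and 22.1 CPM, and the high-fat libraries had 20.0, 22.4, 21.8 and 22.9 CPM. The high-fat libraries lay close together, and 3 of the 4 control libraries lay above all of them, while replicate 4 of the control diet lay within their range. The log2 fold change was −0.40 ± 0.21 (edgeR's adjusted p = 0.372), and over the alternative settings it ranged from −0.53 to −0.10 with adjusted p between 0.128 and 0.998.

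Leukocyte markers varied with this arm. The 6 leukocyte miRNAs were miR-142a-3p, miR-142a-5p, miR-150-5p, miR-155-5p, miR-223-3p and miR-342-3p. At week 1 they summed to a median of 29744 CPM (8648 to 41901) on control and 8554 CPM (3319 to 17005) on high-fat diet. On high-fat diet 1 of the 6 was higher and 5 were lower, and 0 of the 6 were called. Over the 24 libraries miR-148b-5p followed the mean log2 level of these markers with a Spearman correlation of 0.73 (Pearson 0.69), and of 0.55 after the group means were taken out. For miR-148b-3p, from the same hairpin, the same correlation was 0.00, and −0.36 with the group means taken out. Markers of other tissues were compared at week 1 as well, where 0% of all miRNAs were called. The 5 skeletal muscle and the 5 erythrocyte miRNAs were all higher on high-fat diet (median log2 fold changes 0.66 and 0.32). Their Spearman correlations with miR-148b-5p were −0.25 and −0.23 (−0.20 and −0.21 within groups). The 2 smooth muscle and pericyte miRNAs were lower (median −0.10), with a correlation of −0.0009 (0.02 within groups). The 7 epithelial miRNAs were all higher on high-fat diet (median log2 fold change 0.38, 0 called), with sums of 12759 to 16416 CPM on control and 8761 to 39056 CPM on high-fat diet, and their Spearman correlation with miR-148b-5p was −0.48 (−0.49 within groups). The liver marker miR-122-5p, at 128 to 366 CPM on control and 345 to 760 CPM on high-fat diet, was not called either and had the same correlation of −0.48 (−0.33 within groups). With the muscle and leukocyte markers as covariates the week 1 difference of miR-148b-5p was −0.10 (edgeR's adjusted p = 0.998). Without the 3 libraries lowest in leukocyte markers, among them replicates 1 and 3 of high-fat week 1, it was −0.34 (edgeR's adjusted p = 0.901). Without the 3 libraries highest in muscle markers it was −0.53 (edgeR's adjusted p = 0.172). For miR-148b-3p the same settings, in this order, gave −0.36, −0.28 and −0.21 (edgeR's adjusted p = 0.998, 0.901 and 0.511). Its main fit gave −0.26. The part of other cells in the differences of these arms was not tested further. In bulk tissue fewer cells of a type and less RNA per cell cannot be told apart.

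The other 5p arms showed smaller diet differences. miR-148a-5p differed by a log2 fold change of −0.01 at day 1, −0.20 at week 1 and 0.06 at week 3, each with an SE of 0.25. For miR-152-5p the values were −0.11, 0.00 and 0.19, with the same SE. Neither arm came near the threshold, the lowest edgeR adjusted p of the 2 being 0.710.

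**Figure D3:**
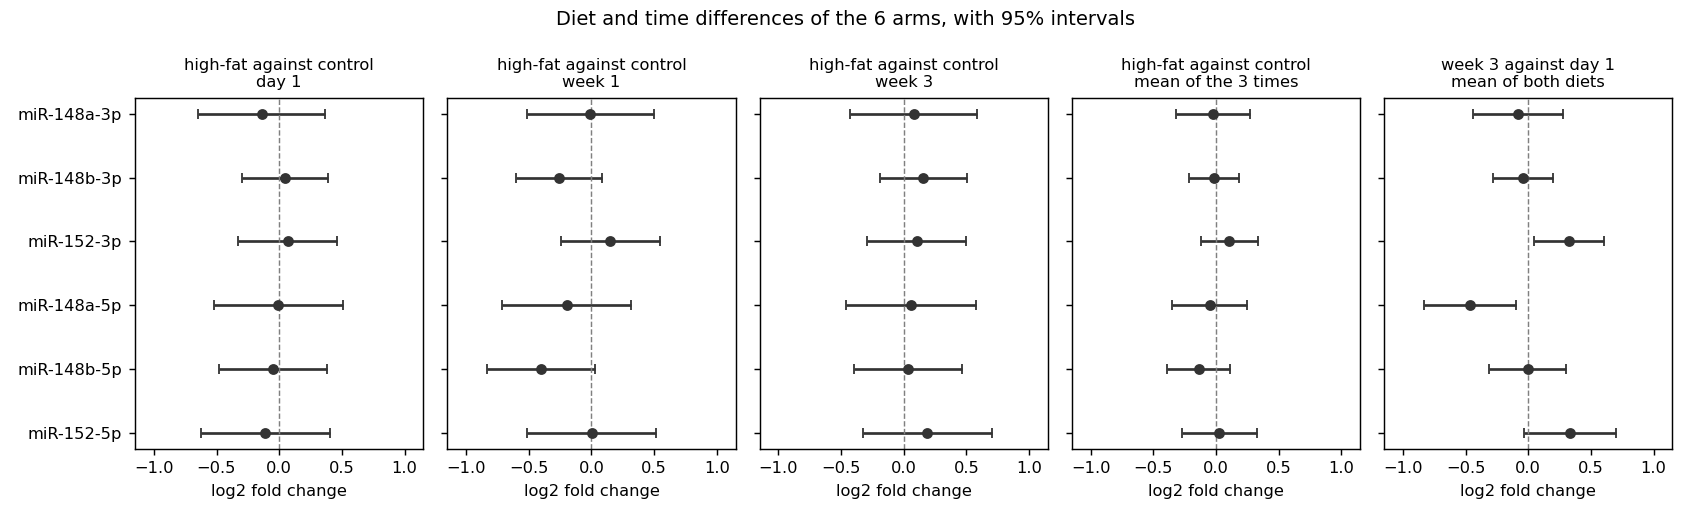
Log2 fold changes of the 6 arms (points) with 95% intervals (bars) in the 3 diet comparisons, their mean and week 3 against day 1 over both diets; the dashed line marks no difference. All diet intervals include 0, and in the time comparison those of miR-148a-5p and miR-152-3p do not, though neither passed the adjusted threshold.

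Time on either diet was compared next, to ask whether the family moved while the mice were fed. The labels used here give no age and no batch, so neither can be told apart from time on the diet. Within the control diet 0 members were called from day 1 to week 1, against a background of 0.179% (1 of 558), 0 from week 1 to week 3 (0% of all, 13 at an unadjusted p below 0.05) and 0 from day 1 to week 3 (0.358%, 2 of 558). Within the high-fat diet 0 members were called from day 1 to week 1 (0% of all, 115 at an unadjusted p below 0.05), 0 from week 1 to week 3 (0%, 80) and 0 from day 1 to week 3 (0%, 88). In the control comparisons DESeq2 called 9, 0 and 6 miRNAs and limma-voom 22, 0 and 4, and in the high-fat comparisons DESeq2 called 23, 0 and 11 and limma-voom 44, 0 and 14, with no member among them. The comparisons within a diet share libraries, since day 1 and week 3 each enter more than one of them.

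The contrast with the most calls was week 3 against day 1 averaged over both diets, 8 libraries against 8. There 40 of the 558 miRNAs, 7.17%, were called, 19 higher and 21 lower, and 0 of the 6 members. The members' median log2 fold change was −0.02, beside 0.05 for all miRNAs. In this contrast 2 members, miR-148a-5p and miR-152-3p, had an unadjusted p below 0.05, as had 156 of all miRNAs.

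miR-148a-5p was lower at week 3 without passing the threshold. At day 1 it had 129, 99.8, 137 and 178 CPM on control diet and 129, 149, 147 and 116 CPM on high-fat diet. At week 3 it had 99.6, 102, 59.5 and 125 CPM on control diet and 121, 100.1, 98.0 and 82.2 CPM on high-fat diet. The lowest value, replicate 3 of the control diet, was a week 3 library and the highest, replicate 4 of the control diet, a day 1 library, and the times overlapped. The log2 fold change was −0.46 ± 0.18, 0.726-fold with a 95% interval from 0.563 to 0.935 (edgeR's adjusted p = 0.0926). Over the alternative settings it stayed between −0.61 and −0.37, with adjusted p from 0.0307 to 0.176. It passed with DESeq2 (−0.48, adjusted p = 0.0485), with limma-voom (−0.46, adjusted p = 0.0445) and with library totals as the only scaling (−0.51, adjusted p = 0.0374). Without replicate 4 of control week 3 it passed as well, at −0.61 with adjusted p = 0.0307. The 5 muscle markers were all higher at week 3, though 0 of the 5 were called. They summed to 129 to 2302 CPM on control and 24.04 to 3021 CPM on high-fat diet at day 1, and to 2190.0 to 12897 and 1225 to 17146 CPM at week 3. With the marker covariates the difference of miR-148a-5p was −0.37 (adjusted p = 0.160 by edgeR), and without the 3 libraries highest in muscle markers it was −0.42 (adjusted p = 0.112).

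For its partner miR-148a-3p the same contrast gave −0.08 ± 0.17, and the test of the difference between the arms, their ratio, did not pass (limma's adjusted p = 0.0706).

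miR-152-3p was higher at week 3, again without passing. Its day 1 and week 3 values are those given above: 3402 to 4993 CPM in the 8 libraries of day 1 and 3965 to 7013 CPM in the 8 libraries of week 3. The log2 fold change was 0.33 ± 0.14, 1.25-fold with a 95% interval from 1.03 to 1.52 (edgeR's adjusted p = 0.123). The value depended on 1 library, since without replicate 4 of control week 3 it was 0.16 (adjusted p = 0.408). With muscle and leukocyte covariates it was 0.43 and passed, with adjusted p = 0.0424 by edgeR. The endothelial marker miR-126a-3p was called higher in the same contrast, by 0.36 ± 0.11 (edgeR's adjusted p = 0.0473). Over the 24 libraries miR-152-3p followed it with a Spearman correlation of 0.69, and of 0.50 with the group means taken out. For the smooth muscle and pericyte markers miR-143-3p and miR-145a-5p these correlations were 0.36 and 0.69. The second listed endothelial marker, miR-126a-5p, was at 0 in the table. The part of endothelial, smooth muscle or other cells in the miR-152-3p difference was not tested.

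miR-152-5p moved in the same direction as its partner, by 0.33 ± 0.18 (edgeR's adjusted p = 0.214), and by 0.16 without replicate 4 of control week 3. On high-fat diet its day 1 libraries had 84.5, 79.0, 83.1 and 90.7 CPM, and its week 3 libraries had 139, 106, 106 and 119 CPM. All 4 week 3 values lay above all 4 day 1 values, as they did for miR-152-3p on high-fat diet. These 2 members stood against a background of 7.35% of the 558 miRNAs whose high-fat libraries were all higher at week 3 than at day 1. On control diet miR-152-5p had 95.2, 77.7, 83.9 and 107 CPM at day 1 and 105, 103, 66.0 and 139 CPM at week 3. There the times overlapped, with replicate 3 of week 3 below every day 1 library.

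miR-148b-3p had its lowest group at high-fat week 1. All 4 of its libraries there lay below all 4 high-fat libraries of day 1, 1 member against a background of 5.73% of all miRNAs lower in this way. The same 4 also lay below all 4 high-fat libraries of week 3, 1 member against a background of 2.51%. The log2 fold changes were −0.27 ± 0.17 from day 1 to week 1 (edgeR's adjusted p = 0.342) and 0.28 ± 0.17 from week 1 to week 3 (adjusted p = 0.451). They rest on the same week 1 libraries, of which replicate 2 was the highest of all 24 in muscle markers.

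The 3p to 5p ratio within a library needs no scaling between libraries and compares the arms of one hairpin. It was computed for the 167 hairpins with both arms tested, as log2 of the counts with 0.5 added, and fitted with limma. Hairpins with an arm removed by the filter have no ratio and take no place in the ranking. A large ratio can be counted only where the more abundant arm is itself abundant. The 3p arm was the more abundant in 80 of the 167 hairpins. miR-148a had a mean ratio of 10.55, or 1495-fold, the ninth largest imbalance of the 167 in either direction. For miR-152 it was 5.64, or 49.8-fold, at place 47, and for miR-148b 5.62, or 49.3-fold, at place 48, while the median size over all hairpins was 2.94. Thus the ratio of miR-148a stood apart from both relatives in all 24 libraries (10.03 to 11.10, against 5.09 to 5.91 and 5.05 to 6.07), whereas those of miR-148b and miR-152 overlapped.

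Between the diets the arm ratios were not called. At day 1, week 1 and week 3 and for their mean, 0 of the 3 family ratios passed, beside 0%, 0%, 0% and 0% of the 167. At day 1 the log2 difference of miR-148a was −0.12 ± 0.19, at week 1 0.14 ± 0.19 and at week 3 0.04 ± 0.19 (limma's adjusted p between 0.928 and 0.995). The mean over the 3 times was 0.02 ± 0.11, with a 95% interval from −0.20 to 0.25. For miR-148b the mean was 0.13 ± 0.13, and for miR-152 0.06 ± 0.10.

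Over time the miR-148a ratio was higher at week 3 without passing the threshold. At day 1 its log2 value was 10.12, 10.44, 10.77 and 10.55 on control diet and 10.07, 10.14, 10.62 and 10.56 on high-fat diet. At week 1 it was 10.23, 10.38, 10.77 and 10.03 on control diet and 10.33, 10.49, 10.62 and 10.53 on high-fat diet. At week 3 it was 10.78, 10.48, 10.86 and 11.01 on control diet and 10.75, 10.54, 10.91 and 11.10 on high-fat diet. The 4 highest of all 24 values belonged to week 3, 2 from each diet, and the values of day 1 and week 3 overlapped. The difference, week 3 against day 1 over both diets, was 0.39 ± 0.13 with a 95% interval from 0.12 to 0.67 (limma's adjusted p = 0.0706). In that contrast 0 of the 3 family ratios were called, beside 7.78% (13 of 167) of all. Within the control diet the difference was 0.31 ± 0.19 (0 family ratios called, 0% of all), and within the high-fat diet 0.47 ± 0.19 (0 called, 0% of all; adjusted p = 0.308 by limma). The same contrast gave −0.01 ± 0.16 for miR-148b and 0.01 ± 0.12 for miR-152.

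The call for miR-148a lay near the threshold. Over the alternative settings its difference ranged from 0.33 to 0.44 and limma's adjusted p from 0.0302 to 0.146. It passed with the replicate number as a block (0.39, limma's adjusted p = 0.0302), though whether the numbers pair the libraries is not known. It passed when only hairpins with both arms at a mean CPM of at least 10 were tested (adjusted p = 0.0475). It also passed without replicate 2 of control week 3 (0.44, adjusted p = 0.0467) and without replicate 2 of high-fat week 3 (0.44, adjusted p = 0.0463). Without the 3 libraries highest in muscle markers it was 0.35 (adjusted p = 0.146). An exact permutation test within each diet gave p = 0.00939, with adjusted p = 0.0897 over the 167 ratios.

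**Figure D4:**
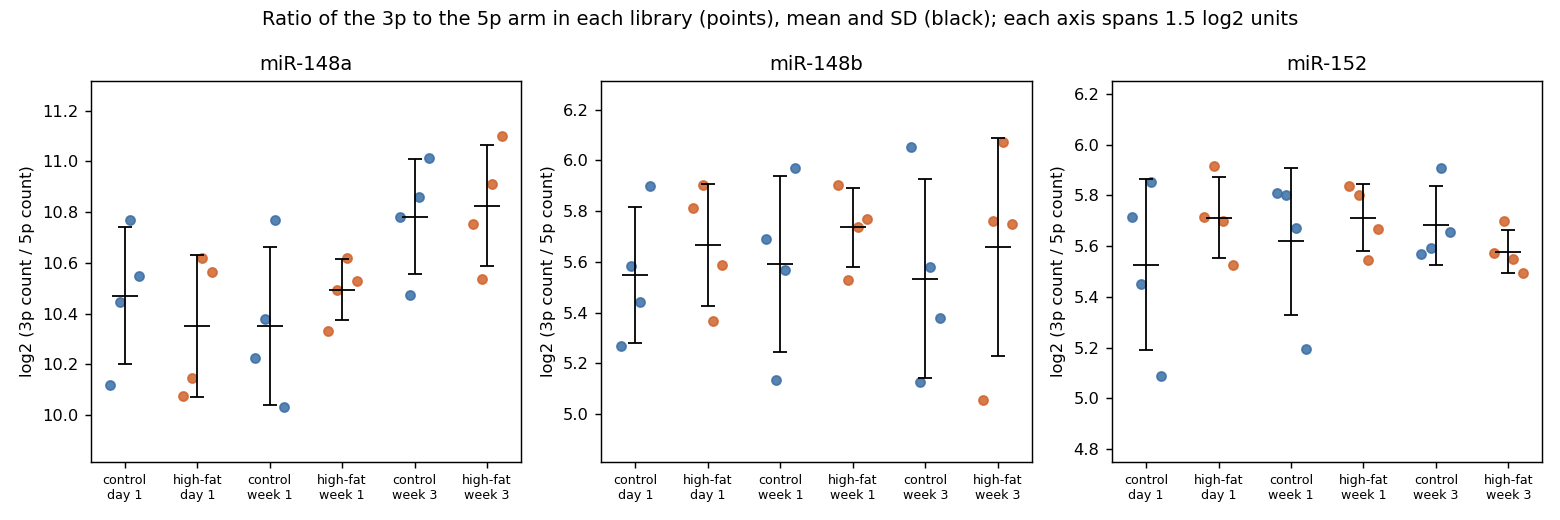
Log2 ratio of the 3p to the 5p count in each library (points), with mean and SD of 4 libraries (black), for the 3 hairpins by diet and time; the panels have different offsets and the same span of 1.5 log2 units. The miR-148a ratio lies between 10.03 and 11.10 with its 4 highest values at week 3, and the miR-148b and miR-152 ratios lie between 5.05 and 6.07.

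The balance of the guides was compared directly. The log2 ratio of miR-152-3p to miR-148a-3p and that of miR-148b-3p to miR-148a-3p were tested in 5 comparisons each, the 3 diet comparisons and week 3 against day 1 in each diet, 10 in all, by an exact two-sided permutation test of 4 libraries against 4 with 70 regroupings. The smallest p this design allows is 0.0286, and at least 6 of the 10 would have to reach it for any to pass after adjustment, so that not passing says little. None passed, and the lowest exact p was 0.114 (adjusted p = 0.476), for miR-152-3p to miR-148a-3p between the diets at week 1, where the difference was 0.15 (0.07 without replicate 1 of control week 1). The largest difference in size was 0.50, for the same ratio at week 3 against day 1 on control diet (exact p = 0.143, adjusted p = 0.476). Without replicate 4 of control day 1 it was 0.27. Behind it, miR-148a-3p exceeded miR-152-3p by 28.8 to 73.3 times at control day 1 and by 27.9 to 36.7 times at control week 3. In high-fat week 1 that ratio was narrow, between 28.2 and 30.1 times.

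Levels of the members varied together in part from library to library. These correlations are over 24 libraries that share a normalization and hold the group differences, and they are descriptions. miR-152-3p and miR-152-5p, from one hairpin, had a Spearman correlation of 0.83, place 157 from the lowest of the 167 arm pairs. For miR-148a the arms gave 0.56, and for miR-148b 0.13, beside a median of 0.44 over the 167 pairs. Between guides it was 0.62 for miR-148a-3p with miR-148b-3p, 0.41 for miR-148a-3p with miR-152-3p and 0.11 for miR-148b-3p with miR-152-3p.

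The miRNAs outside the family were ranked by their likeness to each guide. Of the 552 tested miRNAs outside the family, miR-708-3p was most like miR-148a-3p, with a Spearman correlation of 0.85 (Pearson 0.84, and Spearman 0.84 with the group means taken out). It was followed by miR-3081-3p (0.72), miR-99b-3p, miR-218-5p and miR-130a-5p (each 0.70). The median over the 552 was −0.04. miR-708-3p was also the one most like miR-148b-3p (0.69), followed by miR-7091-3p (0.68), miR-132-5p (0.56), miR-27a-5p (0.53) and miR-877-3p (0.49). For miR-152-3p the list was miR-574-3p (0.85), miR-326-5p (0.83), miR-130a-5p (0.73), miR-181c-3p (0.72) and miR-1839-3p (0.72). miR-326-5p and miR-7091-3p were rare, with means of 3.39 and 3.01 CPM.

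**Figure D5:**
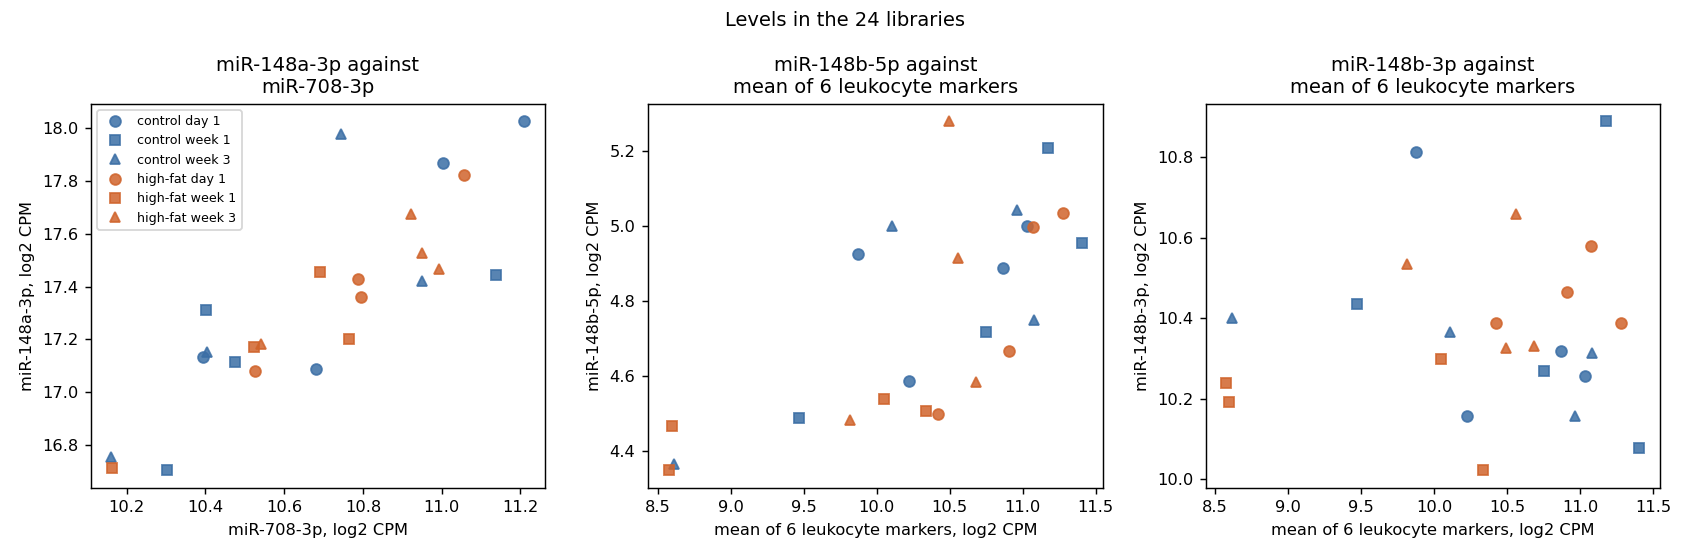
Log2 CPM in the 24 libraries (blue control, orange high-fat; circles day 1, squares week 1, triangles week 3) of miR-148a-3p against miR-708-3p, and of miR-148b-5p and miR-148b-3p against the mean of 6 leukocyte markers. The Spearman correlations are 0.85, 0.73 and 0.00, or 0.84, 0.55 and −0.36 with the group means taken out.

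The markers of other cells also varied with the miR-148a arms. The smooth muscle and pericyte markers miR-143-3p and miR-145a-5p had a Spearman correlation of 0.54 with miR-148a-3p and of 0.64 with miR-148a-5p. With the group means taken out these were 0.68 and 0.73. The endothelial marker miR-126a-3p had one of 0.56 with miR-148a-3p and of −0.01 with miR-148a-5p (0.56 and 0.32 within groups). Skeletal muscle markers ran against miR-148a-5p (−0.56, and −0.39 within groups) and, less so, against miR-148a-3p (−0.26, and −0.26 within groups). The library with the most muscle miRNA, replicate 2 of high-fat week 1 with 80409 CPM, had the second-lowest level of miR-148a-3p, 107548 CPM. Library depth, as log10 of the total count, had correlations between −0.19 and 0.16 with the 6 members.

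miRNAs with roles near those of the family were taken as lists. Of 20 miRNAs known to promote adipogenesis or to be enriched in adipocytes, 19 were tested. None was called between the diets at any time or in the mean, beside 0% of all miRNAs. In the mean 5 were higher and 14 lower, with a median log2 fold change of −0.08 beside −0.04 for all miRNAs. The most abundant of them, miR-143-3p and miR-21a-5p, differed by 0.09 ± 0.13 and −0.10 ± 0.11. From day 1 to week 3 over both diets 1 of the 19 was called, beside 7.17% of all miRNAs. It was miR-26b-5p, which is known to support adipocyte differentiation and fell by 0.68 ± 0.17 on the log2 scale (edgeR's adjusted p = 0.0209). None was called higher.

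Of 14 miRNAs known to restrain adipogenesis, 13 were tested. In the 12 comparisons 0 of them were called, beside 0% to 7.17% of all miRNAs. The most abundant, miR-27b-3p and miR-27a-3p, which repress Pparg, differed between the diets by −0.03 ± 0.08 and 0.16 ± 0.14 in the mean of the 3 times. Of 9 further miRNAs known to repress DNA methyltransferase messenger RNAs, as the guides do, all 9 were tested. Between the diets 0 of the 9 were called, beside 0% of all miRNAs. In week 3 against day 1 over both diets 7.17% of all miRNAs were called. Of the 9, 1 was called higher, miR-126a-3p, the endothelial marker named above, and 0 were called lower. Whether called or not, 1 of the 9 was higher and 8 were lower. The median log2 fold change was −0.08 for the list beside 0.05 for all miRNAs.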

How the data were processed

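Total RNA of mouse subcutaneous fat was purified with TRIzol and made into small RNA libraries with a NEBNext kit, per the labels' protocols. The deposited table held raw counts per mature miRNA name and library, made by the authors with FastQC, Trim Galore, Bowtie2 and featureCounts on mm10, per the submitters' processing notes. Their versions, settings and miRNA annotation, and how reads with several matches were counted, are not stated there or in the labels. Groups and replicate numbers came from the sample titles.

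Of 1907 names, 440 were at 0 throughout. The edgeR filter (minimum count 10, minimum total 15) kept 558, and the remaining names had 0.0179% of the counts. A chi-square test of each of the 36 within-group pairs found no pair alike (lowest value per degree of freedom 148), and no pair was identical.

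The counts of the 6 groups were fitted in a single cell-means model by edgeR's quasi-likelihood test (edgeR 4.0.16, R 4.3.3), with TMM scaling and Benjamini-Hochberg adjustment over all 558 miRNAs at 0.05. The 12 comparisons were the diets at each time, their mean, diet by time, each pair of times within a diet, and week 3 against day 1 over both diets. Arm ratios (pseudocount 0.5) were fitted with limma 3.58.1 over 167 hairpins, and guide ratios with exact permutation tests. The fits were also run on counts simulated independently, with changes larger than any member difference reported here. That run says nothing of differences as small as these. Correlations used log2 CPM with a prior count of 2.

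The miRNAs named beside the 6 members were the 5 most correlated with each guide, members of lists past the threshold or else the 2 most abundant, the 3 most abundant after miR-148a-3p, and those with the 6 seed bases. The family, lists and tests were chosen with earlier results of these data known. Alternatives were other scalings and filters, DESeq2 1.42.0, limma-voom, marker covariates, a replicate block and leaving out libraries. Leaving out 3 libraries by their marker levels was chosen after the data were seen.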

Additional observations from a re-analysis of the deposited data

How the results depend on the processing

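Of 280 alternative counts of called members, 275 were unchanged. In week 3 against day 1 over both diets the count of 0 became 1 with library totals alone, DESeq2, limma-voom (miR-148a-5p each time) and with muscle and leukocyte covariates (miR-152-3p), and leaving out one library gave 0 to 1. Over all miRNAs the 40 calls of that contrast became 71 with DESeq2, 91 with limma-voom, 76 with the covariates, 19 with no filter, 22 without the 3 libraries lowest in leukocyte markers, and 19 to 45 with one library left out. High-fat against control at week 1, at 0 calls, gave 31 without the 3 libraries highest in muscle markers, none a member. For arm ratios the count of 0 in week 3 against day 1 over both diets became 1 (miR-148a) when both arms had to reach a mean CPM of 10 and with the replicate block, and 0 to 1 with one library left out. The cause was not tested.

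Same-numbered libraries of the 2 diets had correlations of their deviations between −0.51 and 0.45, with 7 of 12 over 0.1. Each deviation is from a mean of only 4 libraries, so these values cannot settle whether the numbers pair the samples. With the replicate block, 0 members were called in the 12 comparisons (lowest adjusted p 0.0790 by edgeR), and the miR-148a arm ratio, at 0.39, had an adjusted p of 0.0302 by limma.

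No member, family arm ratio or guide ratio was called, so none had a called direction to lose. The sign of 26 of 42 member fold changes turned under some alternative, 9 of these only with one library left out, as did that of 9 of 21 arm ratio differences and 5 of 10 guide ratios, the largest of them 0.20 in size; the others kept their sign. Depth limited miR-148b-5p most, with 54 to 383 counts per library.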
